A study of Mus musculus with 9 samples.

Results

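The endoplasmic reticulum (ER) genes described here are 10 genes of protein folding and ER stress, measured by RNA sequencing in mouse epididymal adipose tissue. They were taken by name, as the entries of the authors' gene table with the symbols *Hspa5*, *Hsp90b1*, *Calr*, *Pdia3*, *Pdia4*, *Pdia6*, *Xbp1*, *Atf4*, *Ddit3* and *Trib3*. The rule used names and no measured value, but earlier results of these data were known when the genes were chosen. The table holds 56748 genes and 11 entries with these symbols, because *Ddit3* is listed at 2 entries. The second *Ddit3* entry lies inside the first, had 0 reads in all 9 libraries and was left out, and how reads over bases of both entries were assigned is not known here. All 10 genes were among the 18510 genes that reached 0.5 CPM (counts relative to the sum of a library) in at least 1 library and were tested.

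All mice were wild-type male C57BL/6J mice that received a high-fat diet (HFD) from 8 weeks of age for 8 weeks. Tissue was taken at the end of HFD feeding (Pre), after 1 further week of standard diet (WL1) or after 2 further weeks of standard diet (WL2), with 3 libraries per phase. No mice kept on HFD for those further weeks were analysed here, so the change of diet and the added age cannot be told apart. The labels do not say that each library is a separate mouse, so the p-values measure the spread between these libraries. The whole tissue was sequenced, so fewer cells of a type and less RNA per cell cannot be told apart.

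Proteins that are secreted or inserted into membranes fold in the ER, helped by chaperones such as BiP (*Hspa5*) and by enzymes that form disulfide bonds. When unfolded proteins accumulate, ER sensors start the unfolded protein response: IRE1 splices the *Xbp1* mRNA, ATF6 is released as a transcription factor, and PERK phosphorylates the translation factor eIF2alpha, which favours translation of *Atf4* mRNA. XBP1 and ATF6 act on chaperone genes, while ATF4 acts on genes of amino acid supply and on *Ddit3* and *Trib3*, and markers of this response have been studied in obese adipose tissue. Counts per gene hold neither the splicing of *Xbp1* nor the translation of *Atf4*.

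A known binding element of ATF6 in chaperone promoters is the ER stress response element (ERSE), and its promoter matches are shown because among the members only chaperone and isomerase genes held one. The ERSE was searched as CCAAT, any 9 bases, then CCACG, on both strands, in the RefSeq promoter windows of GRCm38.p6, which run from 250 bases before to 50 bases after each gene start. All 10 genes had 1 window, and 4 of these 10 windows held an ERSE, against 0.119% of the 32851 windows of the table. The matches were in *Hspa5*, *Hsp90b1*, *Calr* and *Pdia6*, and *Hsp90b1* held 2. The bases around them follow, in the direction of transcription and before the gene start, with the ERSE in capitals; the second match of *Hsp90b1* and the match of *Calr* are on the opposite strand and read CGTGG first.
Hspa5, chr2:34772000-34772068, + strand: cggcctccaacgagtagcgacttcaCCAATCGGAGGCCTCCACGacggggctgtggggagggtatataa
Hsp90b1, chr10:86705508-86705681, - strand: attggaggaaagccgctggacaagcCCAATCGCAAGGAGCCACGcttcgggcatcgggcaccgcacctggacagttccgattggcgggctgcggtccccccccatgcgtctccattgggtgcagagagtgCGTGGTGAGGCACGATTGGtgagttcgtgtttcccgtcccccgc
Calr, chr8:84847050-84847118, - strand: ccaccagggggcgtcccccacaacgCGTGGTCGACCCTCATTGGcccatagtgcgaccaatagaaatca
Pdia6, chr12:17266466-17266534, + strand: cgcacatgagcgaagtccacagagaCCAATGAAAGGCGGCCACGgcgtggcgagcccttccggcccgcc

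Counting back from the base before the start as -1, the matches begin at -65 in *Hspa5*, at -212 and -107 in *Hsp90b1*, at -162 in *Calr* and at -98 in *Pdia6*. The CCAAT box alone, which every ERSE contains, was in the windows of 8 of the 10 genes, all but *Xbp1* and *Trib3*, and in 37.4% of all windows. The related elements ERSE-II (ATTGGNCCACG, in 0.0365% of all windows) and UPRE (TGACGTGG, in 0.676%) had no match in these windows. The C/EBP-ATF response element, searched as TGATGNAAN and found in 3.95% of all windows, matched once, in *Trib3*, from 14 bases after its start and on the opposite strand. A match is a string of letters and was not tested as a binding site.

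Levels per gene length, as FPKM (sequenced fragments relative to a gene's length and a library's size), spanned from the chaperones down to the stress factors. The calcium-binding lectin chaperone *Calr* had the highest mean over the 9 libraries, 221 ± 45.1 FPKM (mean ± standard deviation, SD), followed by *Hspa5* at 154 ± 44.7 and the glycoprotein disulfide isomerase *Pdia3* at 133 ± 19.9. The HSP90 paralog of the ER, *Hsp90b1*, had 78.7 ± 18.7 FPKM. The isomerase *Pdia6* had 68.2 ± 7.04, and the transcription factors *Xbp1* and *Atf4* had 66.3 ± 7.76 and 60.1 ± 6.36. The isomerase *Pdia4* had 57.0 ± 7.16 FPKM. The apoptosis-related factor *Ddit3* (CHOP) had 16.1 ± 3.52 and the pseudokinase *Trib3*, an inhibitor of AKT, had 5.08 ± 1.46 FPKM, so the induced stress genes were the lowest members.

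The order was fixed in part. *Calr* was above *Hspa5*, *Pdia3* above *Hsp90b1*, *Pdia4* above *Ddit3* and *Ddit3* above *Trib3* in 9 of 9 libraries. *Hsp90b1* was above *Pdia6* in 8 of 9 libraries and *Hspa5* above *Pdia3* in 7 of 9. *Pdia6* and *Xbp1* (5 of 9), *Xbp1* and *Atf4* (6 of 9) and *Atf4* and *Pdia4* (6 of 9) changed places between libraries, so these neighbours were not separated.

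**Figure D1:**
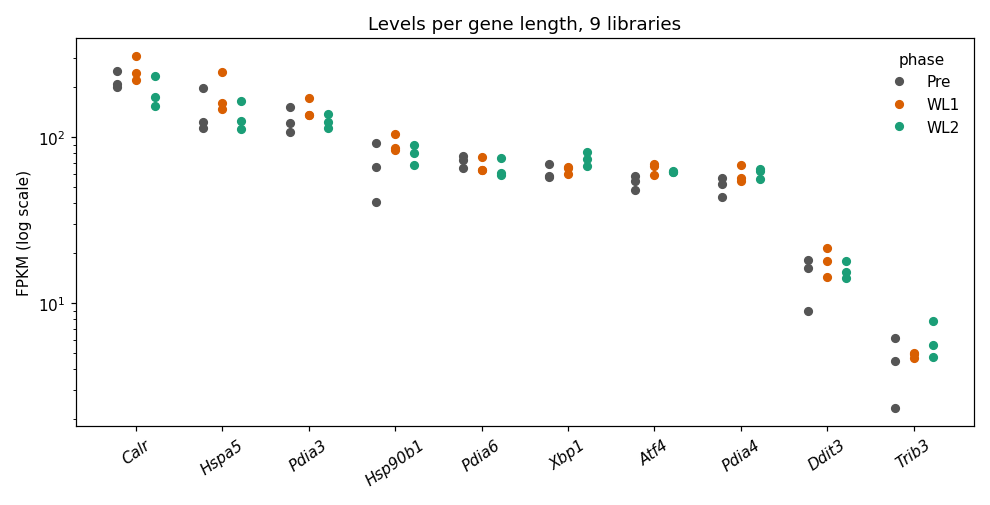
Each point is 1 library, coloured by phase (Pre, WL1, WL2), and the y axis gives FPKM on a log scale for the 10 genes ordered by their mean. *Calr* leads at a mean of 221 FPKM, *Pdia6*, *Xbp1*, *Atf4* and *Pdia4* lie together between 57.0 and 68.2, and *Trib3* is lowest at 5.08.

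The following levels are CPM scaled by factors of the trimmed mean of M-values (TMM), which compare libraries but not genes, and each gene is given with its position in the authors' table. The table's positions match GRCm38 for 0 of the 10 genes, so they are given without a build.

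Among the chaperones, *Hspa5* (chromosome 2, 34661982 to 34667559) encodes BiP, the ER HSP70 that also holds the sensors inactive. It had 559, 507 and 893 CPM at Pre, 727, 677 and 1123 CPM at WL1 and 760, 497 and 557 CPM at WL2. The highest library was WL1 replicate 3, the 3 phases overlapped, and the highest Pre library was above the other 2 WL1 libraries. *Hsp90b1* (chromosome 10, 86526073 to 86541373) folds client proteins such as integrins and Toll-like receptors. It had 284, 173 and 395 CPM at Pre, 370, 365 and 454 CPM at WL1 and 395, 287 and 339 CPM at WL2. Pre replicate 2 was the lowest of all and WL1 replicate 3 the highest, 2.62-fold apart. *Calr* (chromosome 8, 85568479 to 85573563) binds glycoproteins with their sugar trimmed to a single glucose. It had 616, 636 and 760 CPM at Pre, 681, 755 and 962 CPM at WL1 and 729, 470 and 532 CPM at WL2. The WL2 libraries replicate 2 and replicate 3 lay below all other libraries, but WL2 replicate 1 lay among them.

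Among the disulfide isomerases, *Pdia3* (chromosome 2, 121244256 to 121269168) works with calreticulin on glycoproteins. It had 361, 404 and 506 CPM at Pre, 458, 463 and 583 CPM at WL1 and 468, 376 and 410 CPM at WL2. Here too WL1 replicate 3 was highest, and Pre and WL2 covered nearly the same range. *Pdia4* (chromosome 6, 47773075 to 47790364) had 111, 145 and 134 CPM at Pre, 147, 141 and 176 CPM at WL1 and 162, 141 and 162 CPM at WL2. The mean was 130 ± 17.2 CPM in the Pre libraries, 155 ± 18.7 in those of WL1 and 155 ± 11.7 in those of WL2 (SD, n = 3 each), with the highest Pre library above the lowest library of each later phase. *Pdia6* (chromosome 12, 17316546 to 17334771), which also binds the sensor IRE1, had 261, 291 and 306 CPM at Pre, 257, 259 and 308 CPM at WL1 and 306, 233 and 241 CPM at WL2. It varied least of the 10 genes, 1.32-fold from the lowest to the highest library.

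Among the transcription factors, *Xbp1* (chromosome 11, 5470659 to 5475893) had 201, 238 and 198 CPM at Pre, 211, 233 and 227 CPM at WL1 and 287, 253 and 228 CPM at WL2. Its highest libraries were WL2 replicate 1 and replicate 2, while WL2 replicate 3 lay inside the range of Pre. *Atf4* (chromosome 15, 80139385 to 80141742) had 147, 120 and 136 CPM at Pre, 150, 176 and 170 CPM at WL1 and 159, 154 and 154 CPM at WL2. It was the member whose Pre libraries lay below all libraries of WL1 and all libraries of WL2, with a margin of 147 against 150 CPM at the nearest pair. *Atf4* also had the largest share of its variation between phases, 65.9% of the sum of squares of log2 CPM, against 16.1% in *Pdia6*, the smallest.

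The stress effectors were the least expressed and among the most variable members. *Ddit3* (chromosome 10, 127126643 to 127132157) had 33.4, 16.4 and 29.5 CPM at Pre, 26.5, 33.2 and 39.8 CPM at WL1 and 33.5, 27.9 and 25.5 CPM at WL2. Pre replicate 2 was the low library and WL1 replicate 3 the high one, and the phases overlapped. *Trib3* (chromosome 2, 152179342 to 152185952) had 14.0, 10.2 and 5.26 CPM at Pre, 11.2, 11.5 and 10.7 CPM at WL1 and 18.0, 12.6 and 10.6 CPM at WL2. Its lowest library was Pre replicate 3 and its highest WL2 replicate 1, 3.42-fold apart, the widest range of the 10 genes.

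**Figure D2:**
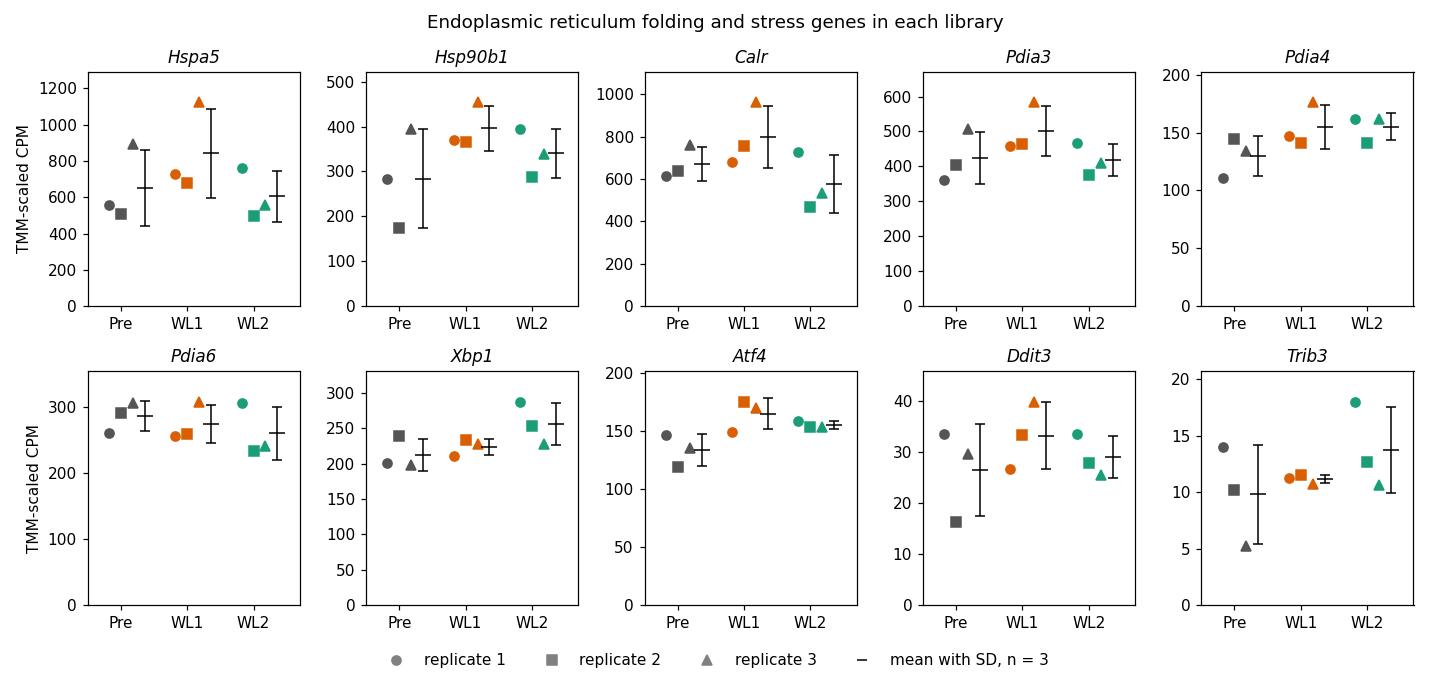
Each panel is 1 gene; points are libraries (shape by replicate number, which has no order), the y axis is TMM-scaled CPM from 0, and the bar beside each phase is the mean with the SD of 3 libraries. WL1 replicate 3 is the highest of the 9 libraries in all 6 chaperone and isomerase genes, and the Pre libraries of *Atf4* lie below those of both later phases.

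The comparison of WL1 with Pre asks what 1 week of standard diet did to these genes. Of the 10 genes, 0 passed the adjusted threshold of 0.05 in edgeR's quasi-likelihood test (Benjamini-Hochberg over 18510 genes), where 7.29% of all tested genes did (2.60% higher and 4.69% lower at WL1). DESeq2 also called 0 of them, and both limma fits on FPKM called 0. At an unadjusted p under 0.05 there was 1 member, *Atf4*, against 24.3% of all genes, and *Atf4* was also the 1 member whose libraries did not overlap, against 28.7% of all genes. *Atf4* was 165 ± 13.6 CPM at WL1 and 134 ± 13.8 CPM at Pre, a log2 fold change of 0.30 ± 0.11 (standard error, SE; 95% interval 0.06 to 0.54; adjusted p = 0.127). The largest difference was that of *Hsp90b1*, with a log2 fold change of 0.48 ± 0.25 (adjusted p = 0.269).

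The direction was alike in most members without any of them passing the test. The log2 fold change was positive in 9 of 10 genes and -0.06 in *Pdia6*, where library totals without TMM factors gave 0.04. The median was 0.25 beside 0.02 over all genes tested, and 0.35 beside 0.12 without TMM factors. That scaling also turned the split of all called genes, from 482 higher and 868 lower to 1003 higher and 642 lower. The median absolute log2 fold change of the 10 genes, 0.25, was below that of all genes, 0.30. Without WL1 replicate 3, the library that was highest in 7 of the 10 genes, the median was 0.13. The intervals limit how large a difference these libraries could hide: only that of *Hsp90b1* reached past 2-fold, up to 2.05-fold, and that of *Xbp1* ran from 0.874-fold to 1.27-fold.

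The comparison of WL2 with Pre asks what remained or appeared after 2 weeks. Again 0 of 10 members passed the adjusted threshold of edgeR, where 10% of all genes did (3.35% higher and 6.66% lower at WL2), and DESeq2 and the limma fits called 0. At an unadjusted p under 0.05 there was 1 member, *Xbp1*, against 26% of all genes, with 256 ± 29.8 CPM at WL2 and 212 ± 22.6 CPM at Pre. Its log2 fold change was 0.27 ± 0.12 (SE; 95% interval 0.0023 to 0.54; adjusted p = 0.189), and its libraries overlapped. *Atf4* was the 1 member without overlap, against 30.9% of all genes, with 156 ± 3.15 CPM at WL2 and a log2 fold change of 0.21 ± 0.11 (adjusted p = 0.246). *Trib3* had the largest difference, 0.49 ± 0.31 on the log2 scale (adjusted p = 0.338), with an interval from 0.877-fold to 2.26-fold.

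In WL2 against Pre the members did not share a direction. *Xbp1*, *Atf4*, *Ddit3* and *Trib3* all had positive log2 fold changes, from 0.13 to 0.49. Of the 6 chaperones and isomerases, *Hsp90b1* and *Pdia4* had 0.26 each, and *Hspa5*, *Calr*, *Pdia3* and *Pdia6* lay between -0.22 and -0.02, but of these 4 only *Calr* stayed negative without TMM factors, where the median of all genes was 0.16 and 1495 genes were higher and 835 lower in place of 620 and 1233. The median of the 10 genes was 0.17 (all genes: 0.01), and leaving out Pre replicate 2 gave -0.02, leaving out WL2 replicate 1 gave 0.08.

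The comparison of WL2 with WL1 asks what the second week added. Again edgeR, DESeq2 and limma called 0 of 10 members, where edgeR called 3.68% of all genes (1.31% higher and 2.37% lower at WL2), and 0 members were free of overlap, against 30.3% of all genes. At an unadjusted p under 0.05 there was 1 member, *Calr*, against 21.4% of all genes, with 577 ± 135 CPM at WL2 and 799 ± 145 CPM at WL1. Its log2 fold change was -0.47 ± 0.19 (SE; 95% interval -0.88 to -0.06; adjusted p = 0.175). Without WL2 replicate 1, the call was made, at -0.67 (adjusted p = 0.0471 in edgeR). *Hspa5* had -0.48 ± 0.26 (adjusted p = 0.332), with an interval that reached down to 0.481-fold.

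Of the 10 genes, 7 had negative log2 fold changes in WL2 against WL1, and *Pdia4* (0.0018), *Xbp1* (0.20) and *Trib3* (0.30) did not. The median was -0.14, beside -0.0014 over all genes, and leaving out 1 library gave -0.04 (WL1 replicate 3), -0.09 (WL2 replicate 2), -0.10 (WL2 replicate 3) or -0.26 (WL2 replicate 1). The 3 comparisons share their libraries in pairs, so a high level at WL1 enters the first and the third with opposite signs.

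**Figure D3:**
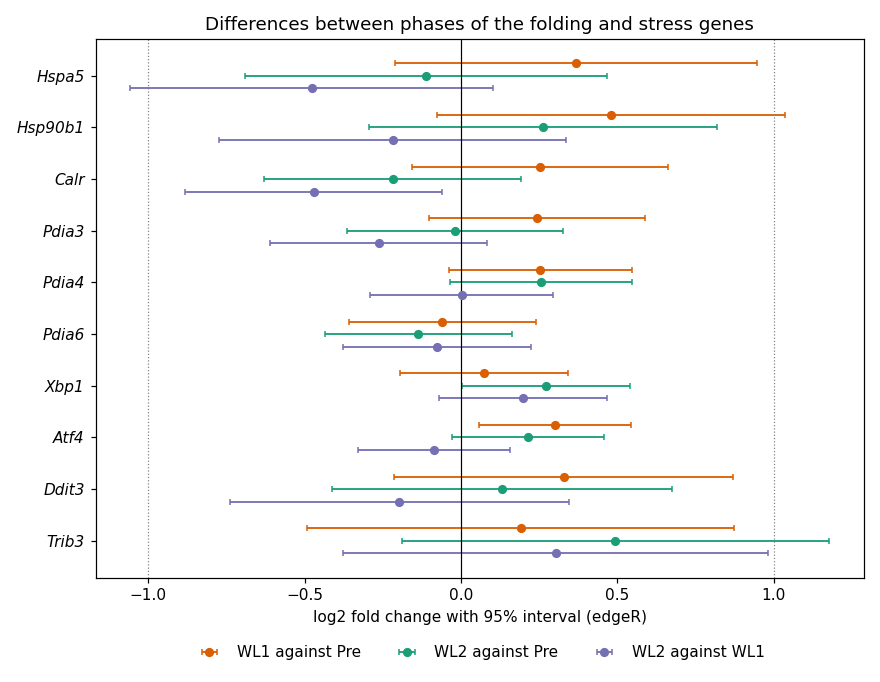
For each of the 10 genes, points give the edgeR log2 fold change of WL1 against Pre, WL2 against Pre and WL2 against WL1, and bars the 95% interval; dotted lines mark 2-fold. Most intervals cross 0, and the 3 that do not are *Atf4* in WL1 against Pre, *Xbp1* in WL2 against Pre and *Calr* in WL2 against WL1.

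The folding genes varied between the libraries of a phase as well as between phases. The 6 chaperones and isomerases summed to 2193, 2155 and 2994 CPM at Pre, 2641, 2659 and 3606 CPM at WL1 and 2820, 2004 and 2240 CPM at WL2. The mean sum of WL1 was 2968 ± 552 CPM, beside 2447 ± 474 for Pre and 2355 ± 420 for WL2 (SD, n = 3 each), so the phases differed by about as much as libraries of 1 phase did. Over the 9 libraries, which share their phases, Pearson's r of log2 CPM was 0.95 between *Hspa5* and *Pdia3*, 0.89 between *Hspa5* and *Calr* and 0.44 between *Hspa5* and *Pdia4*. *Hspa5* had r = -0.16 with *Xbp1*, 0.39 with *Atf4* and -0.30 with *Trib3*, while *Ddit3* had 0.63 with *Hspa5* and 0.84 with *Hsp90b1*.

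The libraries also differed in markers of other cell types. The 11 macrophage markers, all with reads, summed to 1709, 3194 and 2730 CPM at Pre, 3294, 3824 and 6321 CPM at WL1 and 3551, 1897 and 2109 CPM at WL2. Their highest library was WL1 replicate 3, as for all 6 folding genes, and within WL2 replicate 1 was the highest for both, but within Pre replicate 2 had the highest macrophage sum and the lowest folding sum. The 8 fibroblast markers, all with reads, were also highest in WL1 replicate 3, with 6677 CPM against 3554 to 5184 CPM in the other 8 libraries. In edgeR 0 of them passed in WL1 against Pre or WL2 against WL1. In WL2 against Pre 1 rose and 1 fell, beside 3.35% and 6.66% of all genes. In edgeR 1 of the 11 macrophage markers rose at WL1 against Pre and 0 fell, beside 2.60% and 4.69% of all genes, and 0 passed in the other 2 comparisons. The part of either cell type in the levels of the folding genes was not tested. The 5 B cell markers summed to 201 CPM in Pre replicate 2 and to between 3.83 and 19.0 CPM in the other 8 libraries, and the 6 plasma cell markers to 396 CPM there and to between 69.7 and 228 CPM elsewhere. Pre replicate 2 was the lowest library for *Hsp90b1*, *Atf4* and *Ddit3*, and without it the log2 fold change of *Ddit3* in WL2 against Pre was -0.12 in place of 0.13. The tissue is labelled as adipose tissue, and the 9 adipocyte markers all had reads and summed to 20799 to 37214 CPM.

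The genes around the 10 members were followed in 7 lists of the ER and stress pathways, which exclude the members. Of 15 ER chaperones and cochaperones, 0 rose and 0 fell in each of the 3 comparisons in edgeR and in DESeq2. In WL1 against Pre, WL2 against Pre and WL2 against WL1, 0, 1 and 2 had an unadjusted p under 0.05. Of all genes, 24.3%, 26% and 21.4% did, and 7.29%, 10% and 3.68% passed the adjusted threshold in edgeR. Their median log2 fold changes were 0.10, -0.04 and -0.23. *Sdf2l1*, a chaperone partner of BiP, had the largest difference at WL1, with 49.4 ± 21.7 CPM against 33.9 ± 11.8 CPM at Pre (log2 fold change 0.54, adjusted p = 0.415), and it was 31.2 ± 14.8 CPM at WL2. Its highest library, at 73.7 CPM, was again WL1 replicate 3. *Dnajb11*, a BiP cochaperone, had 67.2 ± 10.4 CPM at WL2 and 90.6 ± 7.55 CPM at Pre (log2 fold change -0.43, adjusted p = 0.0976).

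Of 13 genes listed as ER thiol oxidoreductases and their relatives, 12 were tested. In WL1 against Pre 0 rose and 1 fell, 8.33% of those tested beside 7.29% of all genes. At an unadjusted p under 0.05 there were 2 of the 12, beside 24.3% of all genes. In WL2 against Pre 0 rose and 2 fell, 16.7% beside 10%, and 4 of the 12 had an unadjusted p under 0.05, beside 26% of all genes. *Qsox1*, a sulfhydryl oxidase that makes disulfide bonds in secreted proteins, had 220, 223 and 191 CPM at Pre, 153, 159 and 159 CPM at WL1 and 160, 149 and 141 CPM at WL2. All later libraries were below all Pre libraries, beside no overlap with Pre in 28.7% (WL1) and 30.9% (WL2) of all genes. It fell by 0.43 on the log2 scale at WL1 (adjusted p = 0.0333) and by 0.49 at WL2 (adjusted p = 0.0137). The first call was lost without any 1 of Pre replicates 1 and 2, WL1 replicates 1, 2 and 3 and WL2 replicate 2 (log2 fold changes -0.45 to -0.39), and the second without WL2 replicate 2 (-0.49) or replicate 3 (-0.45). *Erp29*, a disulfide isomerase relative without a redox site, had 139, 142 and 126 CPM at Pre, 114, 136 and 142 CPM at WL1 and 115, 86.6 and 77.4 CPM at WL2. Its fall at WL2 against Pre, by 0.54 on the log2 scale (adjusted p = 0.0486), was called in 1 of 9 fits without 1 library, the one without WL2 replicate 1, so that the list then held between 0 and 2 calls. With library totals in place of TMM factors the calls of *Qsox1* at WL1 (-0.33, adjusted p = 0.0641) and of *Erp29* (-0.40, adjusted p = 0.0922) were lost. In WL2 against WL1 0 of the 12 passed in edgeR, 1 had an unadjusted p under 0.05 (21.4% of all genes did), and DESeq2 called 1. *Erp29* had the largest difference there, -0.49 (adjusted p = 0.0957), and it passed without WL2 replicate 1 (-0.67, adjusted p = 0.0185).

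Of 17 genes of ER-associated degradation, which removes misfolded proteins, 0 passed in WL1 against Pre in edgeR and DESeq2. An unadjusted p under 0.05 was seen in 0 of them, beside 24.3% of all genes. In WL2 against Pre 0 rose and 2 fell, 11.8% of the list beside 10% of all genes, with a list median of -0.21. An unadjusted p under 0.05 was seen in 7 of the 17, beside 26% of all genes. *Edem1*, a lectin that marks misfolded glycoproteins, had 245, 264 and 230 CPM at Pre, 188, 214 and 227 CPM at WL1 and 196, 160 and 163 CPM at WL2. It fell by 0.51 on the log2 scale (adjusted p = 0.0255), and the call was lost without Pre replicate 1 (-0.51) or 2 (-0.46) or without WL2 replicate 2 (-0.46) or 3 (-0.47). *Faf2*, a recruiter of the extraction ATPase p97, had 75.0, 72.2 and 72.2 CPM at Pre, 65.7, 65.9 and 70.0 CPM at WL1 and 54.4, 54.0 and 56.5 CPM at WL2. It fell by 0.41 at WL2 (adjusted p = 0.0154), and the call was lost without WL2 replicate 2 (-0.40). With library totals in place of TMM factors both calls were lost, at -0.36 for *Edem1* and -0.26 for *Faf2* (adjusted p = 0.0597 and 0.0752). In WL2 against WL1 0 passed in edgeR and DESeq2 called 3. There 5 of the 17 had an unadjusted p under 0.05, beside 21.4% of all genes. The channel component *Derl1* had the largest difference there, 330 ± 17.2 against 245 ± 14.4 CPM (log2 fold change 0.43, adjusted p = 0.105), and it passed without Pre replicate 2 (0.43, adjusted p = 0.0414). *Derl3*, with the largest value at WL1 against Pre, had -0.38 (adjusted p = 0.740), which was 0.73 without Pre replicate 2, the library with the high plasma cell sum.

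Of 14 sensors and regulators of eIF2alpha, 0 passed in WL1 against Pre in edgeR, and DESeq2 and the limma fits called 1 each. In edgeR 2 of the 14 had an unadjusted p under 0.05 there, beside 24.3% of all genes. In WL2 against Pre 1 rose and 0 fell in edgeR, 7.14% of the list beside 10% of all genes. There 4 had an unadjusted p under 0.05, beside 26% of all genes, and DESeq2 called 3. The gene that rose in edgeR was *Ppp1r15a* (GADD34), the phosphatase subunit that reverses the phosphorylation of eIF2alpha. It had 18.2, 17.2 and 19.2 CPM at Pre, 24.3, 23.1 and 24.0 CPM at WL1 and 26.3, 23.2 and 24.3 CPM at WL2. All 6 libraries after the change of diet were above the 3 Pre libraries, beside no overlap with Pre in 28.7% (WL1) and 30.9% (WL2) of all genes. The log2 fold change was 0.38 at WL1 (adjusted p = 0.0555; 0.0315 in DESeq2) and 0.43 at WL2 (adjusted p = 0.0295). The call at WL2 was lost without any 1 of Pre replicates 1 and 2, WL1 replicate 2 and WL2 replicates 1, 2 and 3, at log2 fold changes of 0.38 to 0.47. In WL2 against WL1 0 passed in edgeR and DESeq2, and 1 had an unadjusted p under 0.05, beside 21.4% of all genes. It was the eIF2alpha kinase gene *Eif2ak1*, named after its value was seen (-0.25, adjusted p = 0.173). The largest difference there was that of the ER-resident factor *Creb3l1*, -0.33 (adjusted p = 0.273). In WL2 against Pre *Creb3l1* had -0.57 (adjusted p = 0.0502 in edgeR), larger than the rise of *Ppp1r15a* and in the other direction, and its libraries overlapped.

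The list of 31 genes of the ATF4 pathway had the most calls of the 7 lists. In WL1 against Pre 2 rose and 8 fell, in WL2 against Pre 1 rose and 7 fell, and in WL2 against WL1 2 rose and 2 fell. These are 32.3%, 25.8% and 12.9% of the list, beside 7.29%, 10% and 3.68% of all genes. The list medians were -0.24, -0.21 and -0.03. The genes that fell at WL1 were *Cth*, *Phgdh*, *Nupr1*, *Gpt2*, *Asns*, *Vldlr*, *Psph* and *Stc2*, and those that fell at WL2 were *Cth*, *Slc7a5*, *Vldlr*, *Phgdh*, *Atf5*, *Psat1* and *Aldh18a1*, among them enzymes and a transporter of amino acids. The calls numbered 2 without Pre replicate 1, 4 without WL1 replicate 1 and 3 without WL1 replicate 3 in WL1 against Pre (14 in DESeq2), and in WL2 against Pre 3 if WL2 replicate 2 was left out and 5 if replicate 3 was. In WL2 against WL1 leaving out WL1 replicate 1 or 3, or WL2 replicate 2 or 3, gave 1 call, leaving out WL1 replicate 2 gave 2, and leaving out WL2 replicate 1 gave 7.

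*Cth*, *Phgdh* and *Vldlr* each fell at WL1 and at WL2 against Pre. For *Vldlr* at WL1 the log2 fold change was -0.72 (adjusted p = 0.0149 in edgeR). That call was lost without Pre replicate 1 or without WL1 replicate 1. *Cth*, which releases cysteine from cystathionine, had 21.1, 15.7 and 19.8 CPM at Pre, 5.16, 5.60 and 5.34 CPM at WL1 and 4.54, 5.10 and 5.10 CPM at WL2. It fell by 1.81 on the log2 scale at WL1 (adjusted p = 0.000347) and by 1.94 at WL2 (adjusted p = 6.62e-05), and passed in 9 of 9 fits without 1 library in both. *Phgdh*, the entry enzyme of serine synthesis, had 716, 790 and 594 CPM at Pre, 268, 312 and 255 CPM at WL1 and 337, 424 and 414 CPM at WL2. It fell by 1.33 at WL1 (adjusted p = 0.000887, 9 of 9 fits). All 6 later libraries were below the 3 Pre libraries, beside no overlap with Pre in 28.7% (WL1) and 30.9% (WL2) of all genes. *Vldlr*, a lipoprotein receptor, had 144, 114 and 164 CPM at Pre, 84.6, 91.4 and 79.1 CPM at WL1 and 59.0, 67.5 and 69.6 CPM at WL2. It fell by 1.10 at WL2 (adjusted p = 0.000956, 9 of 9 fits). Of the 9 adipocyte markers, 0 rose and 4 fell at WL1 against Pre, where 2.60% of all genes rose and 4.69% fell. At WL2 against Pre 1 rose and 2 fell, beside 3.35% and 6.66% of all genes. Their sums were lowest at WL1, and their part in these falls was not tested.

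*Asns* and *Gpt2*, which make asparagine and alanine, fell at WL1 against Pre and rose from WL1 to WL2. *Asns* had 39.3, 40.3 and 34.6 CPM at Pre, 26.0, 30.0 and 24.2 CPM at WL1 and 53.1, 55.3 and 54.7 CPM at WL2. The 3 phases did not overlap for *Asns*, beside no overlap in 28.7% (WL1 against Pre), 30.9% (WL2 against Pre) and 30.3% (WL2 against WL1) of all genes. It fell by 0.51 at WL1 against Pre (adjusted p = 0.0253), a call lost without Pre replicate 1 or without WL1 replicate 1. It rose by 1.02 on the log2 scale from WL1 to WL2 (adjusted p = 0.00355, 9 of 9 fits). In WL2 against Pre it was higher by 0.51 (adjusted p = 0.0172), a call lost without Pre replicate 3 (0.45) or WL2 replicate 2 (0.50) or 3 (0.51). *Gpt2* had 240, 212 and 195 CPM at Pre, 114, 146 and 111 CPM at WL1 and 191, 278 and 264 CPM at WL2. It fell by 0.80 at WL1 against Pre (adjusted p = 0.0197), a call also lost without Pre replicate 1 or without WL1 replicate 1. It rose by 0.98 from WL1 to WL2 (adjusted p = 0.0170), a call lost without WL1 replicate 1 (0.92) or 3 (0.93) or WL2 replicate 2 (0.88) or 3 (0.92). The summed adipocyte markers were also lowest at WL1, with 20799 to 27348 CPM, against 29350 to 37214 CPM at Pre and 30499 to 33526 CPM at WL2, where they overlapped with Pre. Of the 9 adipocyte markers, 0 rose and 4 fell in WL1 against Pre, where 2.60% of all genes rose and 4.69% fell. In WL2 against WL1 2 of these markers rose and 1 fell, beside 1.31% and 2.37% of all genes. Their part in the levels of *Asns* and *Gpt2* was not tested.

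The amino acid transporter *Slc7a5* had 12.0, 18.9 and 12.5 CPM at Pre, 11.3, 10.1 and 17.3 CPM at WL1 and 6.30, 4.99 and 6.25 CPM at WL2. The WL2 libraries were the 3 lowest of the 9, beside no overlap of WL2 with Pre in 30.9% and with WL1 in 30.3% of all genes. It fell by 1.31 at WL2 against Pre (adjusted p = 0.00920; call lost without WL2 replicate 2, at -1.20) and by 1.14 at WL2 against WL1 (adjusted p = 0.0370). The second call was lost without any 1 of Pre replicate 3, WL1 replicates 1, 2 and 3 and WL2 replicates 2 and 3 (-1.29 to -0.85). *Aldh18a1*, of proline synthesis, had 17.4, 23.9 and 20.8 CPM at Pre, 20.2, 21.4 and 21.1 CPM at WL1 and 14.0, 11.9 and 13.9 CPM at WL2. It fell by 0.66 from WL1 to WL2 (adjusted p = 0.0343), a call lost without any 1 of the WL1 libraries or without WL2 replicate 2 or 3 (-0.69 to -0.58).

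*Atf3* and *Gdf15*, a stress transcription factor and a secreted stress cytokine, rose at WL1. *Atf3* had 34.1, 48.7 and 65.1 CPM at Pre, 122, 162 and 276 CPM at WL1 and 134, 39.8 and 51.3 CPM at WL2. It rose by 1.92 on the log2 scale (adjusted p = 0.0339), and the call was lost without Pre replicate 1 (1.71) or 2 (1.91) or WL1 replicate 2 (2.01) or 3 (1.51). *Gdf15* had 2.89, 5.68 and 5.21 CPM at Pre, 9.88, 12.3 and 16.7 CPM at WL1 and 12.3, 9.29 and 7.01 CPM at WL2. It rose by 1.49 (adjusted p = 0.0177), a call lost without Pre replicate 1 (1.25) or WL1 replicate 3 (1.26). For both genes the highest of the 9 libraries was WL1 replicate 3, which had the highest macrophage sum (6321 CPM), the highest fibroblast sum (6677 CPM) and the lowest adipocyte sum (20799 CPM). The part of these cell types was not tested. *Nupr1*, a stress-induced chromatin protein, had 106, 63.0 and 117 CPM at Pre, 51.4, 46.2 and 60.0 CPM at WL1 and 62.7, 69.8 and 72.2 CPM at WL2. It fell by 0.86 at WL1 (adjusted p = 0.0324), and passed in 3 of 9 fits without 1 library, being lost without Pre replicates 1 and 3, WL1 replicates 1, 2 and 3 and WL2 replicate 2 (-0.98 to -0.69).

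**Figure D4:**
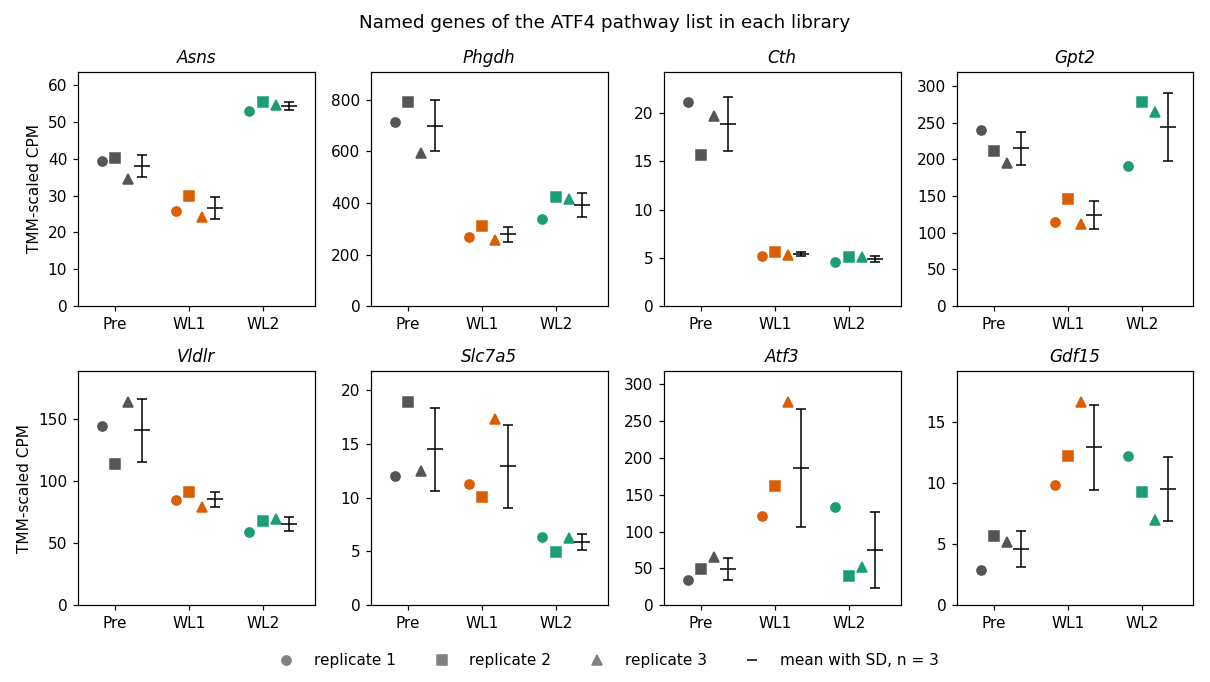
Each panel is 1 gene of the ATF4 pathway list that the text describes; points are libraries (shape by replicate number), the y axis is TMM-scaled CPM from 0, and the bar is the mean with the SD of 3 libraries. *Asns* is at 24.2 to 30.0 CPM at WL1 and at 53.1 to 55.3 CPM at WL2, *Cth* stays at 5.60 CPM or less in the 6 later libraries, and *Atf3* is highest in WL1 replicate 3.

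The last 2 lists had no call in edgeR. Of 20 genes of the translocon, signal peptidase and oligosaccharyltransferase, which bring proteins into the ER and attach sugars, 0 passed in any comparison. At an unadjusted p under 0.05 there were 2, 6 and 2, beside 24.3%, 26% and 21.4% of all genes, and DESeq2 made 2, 2 and 0 calls. *Dad1*, an oligosaccharyltransferase subunit, had 134 ± 12.4 CPM at Pre, 99.1 ± 17.3 CPM at WL1 and 97.0 ± 12.3 CPM at WL2 (log2 fold changes -0.43 and -0.47, adjusted p = 0.104 and 0.0730). Without Pre replicate 1 or 3, 1 gene of this list passed in WL2 against Pre. *Spcs3*, a signal peptidase subunit, had the largest value in WL2 against WL1, -0.33 (adjusted p = 0.182). Of 16 cytosolic and mitochondrial chaperones, 0 passed in any comparison in edgeR, and DESeq2 made 1, 0 and 1 calls. At an unadjusted p under 0.05 there were 1, 0 and 1, beside the same shares of all genes. The small heat shock protein *Hspb1* had 161 ± 17.4 CPM at WL1 and 233 ± 40.7 CPM at WL2 (log2 fold change 0.53, adjusted p = 0.0594; 0.00489 in DESeq2), and the inducible *Hspa1b* had 35.4 ± 23.5 CPM at WL1, 30.8 ± 8.52 CPM at WL2 and 20.8 ± 12.6 CPM at Pre (adjusted p = 0.370 and 0.495). Without WL2 replicate 1, 1 gene of this list passed in WL1 against Pre.

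**Figure D5:**
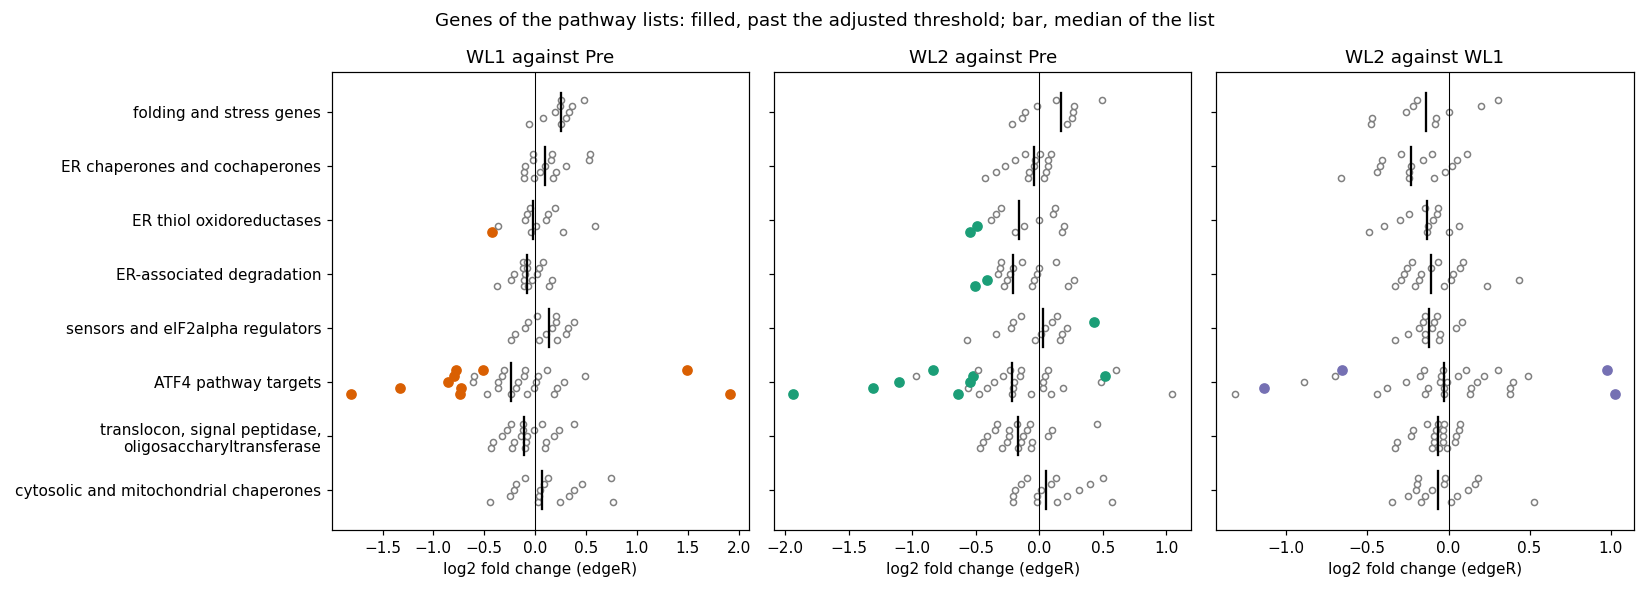
Each point is 1 gene of the list named on the left, the x axis is its edgeR log2 fold change in the comparison named above the panel, filled points passed the adjusted threshold of 0.05, and the bar is the list's median. None of the 10 folding and stress genes in the top row is filled, and the ATF4 pathway list has 10, 8 and 4 filled points.

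The genes whose log2 CPM was most like that of a member over the 9 libraries, among 9696 protein-coding genes with a mean of at least 10 CPM, are given for the chaperone *Hspa5* and for *Trib3*, the member lowest in level. For *Hspa5* these were *Snap23* (Pearson's r = 0.97), *Reps2* (0.95), *Pbdc1* (0.95), *Anxa1* (0.93) and *Mis18a* (0.93). For *Trib3* they were *Pck2*, the mitochondrial form of phosphoenolpyruvate carboxykinase (0.94), *Samm50* (0.94), *Hdhd5* (0.90), *Chst1* (0.90) and *Cyth1* (0.90). The choice rested on single libraries: 1 to 4 of the 5 genes for *Hspa5* and 0 to 4 of the 5 for *Trib3* stayed among the 5 closest when 1 library was left out, the fewest without Pre replicate 2 and without Pre replicate 3. It also rested on the measure: with Spearman's correlation 2 of the 5 stayed for *Hspa5* and 0 of the 5 for *Trib3*.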

How the data were processed

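The authors deposited a table of gene counts, without normalization, and a table of FPKM for the same 9 libraries of epididymal adipose tissue. The submitters' processing notes name CASAVA, HISAT, HISAT2, TopHat2 and GRCm38 (mm10), with no role; for the counting program and the strand setting no source used here gives a name. GENCODE M21 (GRCm38) holds 52073 of the table's genes, 1472 of them at identical positions. Groups came from the sample titles. Libraries held 16434450 to 22729072 counts, so 1 CPM is few reads; mitochondrial genes made up 1.86% to 3.57% and were lowest at WL1. Pairs of libraries of a phase differed by more than counting noise (chi-square per degree of freedom 9.26 to 49.7).

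A gene was tested where 1 or more libraries reached 0.5 CPM, using edgeR 4.0.16 under R 4.3.3 (glmQLFit, glmQLFTest, TMM, 1 model over the 9 libraries, no covariates), with Benjamini-Hochberg adjustment and a threshold of 0.05. Alternatives were DESeq2 1.42.0, limma 3.58.1 on log2(FPKM + 1) and log2(FPKM + 0.1), other scaling and filters, the compared phases alone, a replicate block and leaving out each library. The steps were tested on simulated data. Figures and motif searches used Python 3.11.15 and matplotlib 3.10.9. Log2 CPM used a prior count of 4.

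The members, lists and tests were chosen with earlier results of these data known, and the lists were written from general knowledge. Named genes are the 10 members; per list and comparison up to 3 called rises and 3 called falls among genes with a mean of 1 CPM or more, or else the gene with the largest difference; and the 5 genes most like *Hspa5* and *Trib3*. Other called genes of the ATF4 list, *Eif2ak1*, *Creb3l1* in WL2 against Pre, and *Asns*, *Gpt2* and *Vldlr* in WL1 against Pre, were named after their values were seen.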

Additional observations from a re-analysis of the deposited data

How the results depend on the processing

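In each of the 3 comparisons, 0 of the 10 genes passed under 17 of 18 alternatives. With library totals in place of TMM factors, 1 passed in WL1 against Pre (*Atf4*, 0.40, adjusted p = 0.0425) and 2 in WL2 against Pre (*Xbp1*, 0.42, adjusted p = 0.0420; *Atf4*, 0.37, adjusted p = 0.0465), where the median of all genes shifted to 0.12 and 0.16. In WL2 against WL1, leaving out 1 library gave 0 to 1 genes, *Calr* without WL2 replicate 1. Some log2 fold changes changed sign. With library totals these were *Pdia6* (0.037) in WL1 against Pre and *Hspa5* (0.032), *Pdia3* (0.13) and *Pdia6* (0.0099) in WL2 against Pre, and without a filter *Pdia4* (-0.0024) in WL2 against WL1. Leaving out 1 library gave, in WL1 against Pre, *Trib3* from -0.11 to 0.53 and *Derl3* from -0.78 to 0.73. In WL2 against Pre it gave *Hspa5* from -0.31 to 0.18, *Pdia3* from -0.12 to 0.13 and *Ddit3* from -0.12 to 0.33, and in WL2 against WL1 *Pdia4* from -0.061 to 0.12 and *Pdia6* from -0.21 to 0.032. The cause was not tested.

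Whether the replicate numbers of the labels pair the libraries is not known. Deviations of same-numbered libraries had correlations from -0.28 to 0.11, and those of differently numbered libraries from -0.20 to 0.24. With 3 libraries per phase these values cannot decide it. With the replicate number as a block, 0 of the 10 genes passed in each comparison. Calls over all genes with the block numbered 844 in place of 1350 in WL1 against Pre, 1399 in place of 1853 in WL2 against Pre and 330 in place of 681 in WL2 against WL1, and the calls of *Qsox1*, *Atf3*, *Erp29*, *Edem1*, *Ppp1r15a*, *Slc7a5* and *Aldh18a1* named as lost with single libraries were each lost in 1 comparison. Over all genes, DESeq2 called 2344 in WL1 against Pre and 1935 in WL2 against WL1. In the latter, no filter gave 1668 and the compared phases alone 1053. Leaving out 1 library gave 512 to 1500, 743 to 1688 and 37 to 1351 calls in the 3 comparisons. Calls of named genes were also lost without a filter (*Qsox1* at WL1, *Ppp1r15a*), in fits of the compared phases alone (*Qsox1* at WL1, *Erp29*, *Ppp1r15a*, *Nupr1*) and with limma (*Nupr1* and, in WL2 against WL1, *Slc7a5* and, with a pseudocount of 1, *Aldh18a1*).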
